A study of Rattus norvegicus with 6 samples.

Results

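The genes of the AP-1 transcription factors were followed in synovial fibroblast-like cells, grown as an adherent culture out of the joint lining of arthritic rats (collagen-induced arthritis). The family was taken as 9 genes (Fos, Fosb, Fosl1, Fosl2, Jun, Junb, Jund, Atf3 and Batf3), chosen by name. The deposited table of 17221 transcript rows held 7 of them under their own symbol. Fosb made 8, since a row deposited as LOC100360880 carries the RefSeq accession NM_001256509, which the RefSeq gene table of assembly GRCr8 lists as Fosb. Fosl2 had no row here, so its expression was not analysed. Of the 8 rows, 7 reached the filter of 1 CPM (reads scaled to library size) in both libraries of at least 1 group and were tested, among 9820 rows in all. Batf3 did not, with 0 reads in each of the 6 libraries, where a floor of 3 reads in 1 library corresponds to 0.491 to 0.551 CPM.

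Poly(A) RNA of cells from 2 female Wistar rats, arthritic and taken before any therapy per the labels, was sequenced. The cells of each rat were divided over 3 culture conditions, so each condition had 2 libraries, replicate 1 from rat 1 and replicate 2 from rat 2. Fetal bovine serum (FBS) was added to the first culture and serum taken from untreated animals (MS−) to the second. Serum drawn on day 18 from animals under mechanical stimulation by needle (MS+, acupuncture in the labels) was added to the third. Per the study's methods, MS− serum was drawn before any therapy began. Stimulation and the time of drawing therefore cannot be told apart between MS+ and MS−. How many animals gave each serum was not stated. The spread between the 2 libraries of a condition holds that between 2 cell donors. Whether it also holds a spread between serum donors is not known. The description of the MS− libraries speaks of healthy rats, against their disease field. Per the study's methods, cells stayed in these sera for days and were then detached with trypsin before RNA was preserved.

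The libraries held 5463316 to 5991889 reads. All 11 fibroblast markers had reads in at least 1 library and 9 passed the filter. Their summed level was 88308 to 115094 CPM, with the most reads in the collagen gene Col1a1 and in Fn1. Markers of T, B and red blood cells were at 0 in every library, macrophage markers summed to 13.8 to 20.9 CPM, mostly Cd14, and endothelial and epithelial markers each stayed under 1.5 CPM. The skeletal muscle list (767 to 1201 CPM) and the cartilage list (1453 to 3013 CPM) were carried by Acta1 and by Acan. In bulk RNA, fewer cells that express a gene and less of its RNA per cell cannot be told apart.

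AP-1 is a dimer of basic leucine zipper proteins that binds short DNA elements in promoters and enhancers. Jun proteins (Jun, Junb, Jund) pair with each other or with Fos proteins (Fos, Fosb, Fosl1, Fosl2), while Fos proteins need a Jun partner to bind DNA. Atf3 and Batf3 are relatives that join the same partners. Fos, Fosb, Jun, Junb and Atf3 are immediate early genes, switched on within minutes of serum or stress by MAP kinases and the serum response factor. Jund is the steadier member. The levels given here were taken after days of culture in each serum and not in that early window. In the arthritic joint lining AP-1 is known for driving collagenase and cytokine genes.

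The 250 bases before the start of the gene were searched for motifs in Fosb, Fosl1, Fosl2, Batf3, Junb and Jund, and Fos, Jun and Atf3 had no entry. Junb and Jund are shown, a Jun gene that differed between sera and its relative whose levels overlapped across them. The sequences are those of RefSeq on assembly GRCr8, 5′ to 3′ on the strand of the gene. Capitals mark matches, on either strand, to the cAMP response element TGACGTCA or its core TGACG, the CCAAT box CCAAT and the TATA box TATAAA.
Junb, chr19:40080876-40081125, plus strand: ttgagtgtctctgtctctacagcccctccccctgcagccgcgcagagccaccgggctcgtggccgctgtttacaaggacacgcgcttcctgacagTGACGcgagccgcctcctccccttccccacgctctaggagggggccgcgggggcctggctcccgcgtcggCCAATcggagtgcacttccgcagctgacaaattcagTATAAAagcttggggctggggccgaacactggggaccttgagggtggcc
Jund, chr16:18769772-18770021, minus strand: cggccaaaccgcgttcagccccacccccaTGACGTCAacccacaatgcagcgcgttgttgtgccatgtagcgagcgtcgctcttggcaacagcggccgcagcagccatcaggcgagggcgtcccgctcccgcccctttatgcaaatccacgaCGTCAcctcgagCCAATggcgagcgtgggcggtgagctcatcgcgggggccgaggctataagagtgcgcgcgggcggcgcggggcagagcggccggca
The Junb window held 1 TGACG match 155 bases before the gene, a CCAAT match at 85 and a TATAAA match at 49. The Jund window held 1 TGACGTCA match at 221, with which 2 of its 3 TGACG matches overlap, and a CCAAT match at 86. Over the same window of 33469 rat promoters, TGACGTCA was found in 1.59%, TGACG in 18.2%, CCAAT in 34% and TATAAA in 12.9%. Without its sequence shown, the Fosb window held a TATAAA match at 180 and that of Fosl1 held TGACG matches at 148 and 84, all on the opposite strand. The windows of Fosl2 and Batf3 held no match to any of the motifs. The AP-1 element TGACTCA, present in 4.05% of promoters, and the serum response CArG box were in none of the windows searched. These are matches of letters and not shown binding sites.

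Fos and Fosb were lowest in MS+, below both other sera, and were alike in FBS and MS−. Fos (NM_022197, chromosome 6, 109559135 to 109562001 in rn4, plus strand) measured 289 and 299 CPM in FBS, 248 and 394 CPM in MS−, and 178 and 104 CPM in MS+, replicate 1 first. Fosb (chromosome 1, 78666631 to 78673491, minus strand) measured 362 and 338 CPM in FBS, 271 and 492 CPM in MS−, and 190.3 and 113 CPM in MS+. For both genes the 2 MS+ libraries lay below the other 4, the highest value was in MS− replicate 2 and the lowest in MS+ replicate 2. The ratio of Fosb to Fos stayed between 1.07 and 1.25 in the 6 libraries, although the rows lie on different chromosomes and neither overlaps the row of another gene.

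The mean of Fos was 141 ± 52.4 CPM in MS+ against 321 ± 103 CPM in MS− (SD, n = 2 each), 2.28-fold lower on the log2(CPM + 1) scale. The log2 fold change, on this scale as throughout, was -1.19 (SE 0.29, 95% interval -1.87 to -0.51), and differed between the rats, -0.47 in rat 1 and -1.91 in rat 2. Its limma adjusted p was 0.165, and 0.00161 with the rat as a block. That fit left each feature 2 residual degrees of freedom and used 15.4 in total, the rest borrowed across features. Without the block these were 3 and 6.86. Here and below, p with the block rests mostly on the spread of other features and is no measure of agreement between the rats. Fosb gave -1.31 (SE 0.32, limma adjusted p 0.165), and 0.00159 with the block, with -0.51 in rat 1 and -2.11 in rat 2. Against FBS the change of Fos was -1.10 (SE 0.29, limma adjusted p 0.0608, and 0.000719 with the block). That of Fosb was -1.25 (SE 0.32, limma adjusted p 0.0572, and 0.000567 with the block). Between MS− and FBS the differences were small beside their error, 0.086 (SE 0.29) for Fos and 0.064 (SE 0.32) for Fosb, and the rats moved in opposite directions.

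Fosl1, a Fos protein known from later stages of growth responses, did not share this pattern. Fosl1 (NM_012953, chromosome 1, 208090612 to 208099118, plus strand) measured 30.9 and 39.96 CPM in FBS, 32.2 and 35.2 CPM in MS−, and 44.5 and 38.9 CPM in MS+. The MS+ values were above those of MS− and overlapped FBS. The change was 0.30 on the log2 scale (SE 0.16, 95% interval -0.074 to 0.67, limma adjusted p 0.448) from MS− to MS+ and 0.24 (SE 0.16, limma adjusted p 0.377) from FBS to MS+. The ratio of Fosl1 to Fos in CPM was 0.107 and 0.134 in FBS, 0.130 and 0.0895 in MS−, and 0.249 and 0.373 in MS+.

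Atf3, a stress-induced factor that represses or activates with Jun partners, had few reads and was lowest in MS+. Atf3 (NM_012912, chromosome 13, 107191622 to 107223850, minus strand) had 61 and 39 reads (9.99 and 6.47 CPM) in FBS, 42 and 33 reads (7.68 and 5.97 CPM) in MS−, and 24 and 10 reads (4.32 and 1.84 CPM) in MS+. Both MS+ libraries were below the other 4, as for Fos. The change in Atf3 was -1.001 (SE 0.35, limma adjusted p 0.269, and 0.0115 with the block) against MS− and -1.22 (SE 0.35, limma adjusted p 0.0792, and 0.000963 with the block) against FBS. It was negative in both rats in both comparisons, -0.71 and -1.30 against MS−. With 10 to 61 reads a library, Atf3 is the least precisely counted of the tested members.

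**Figure D1:**
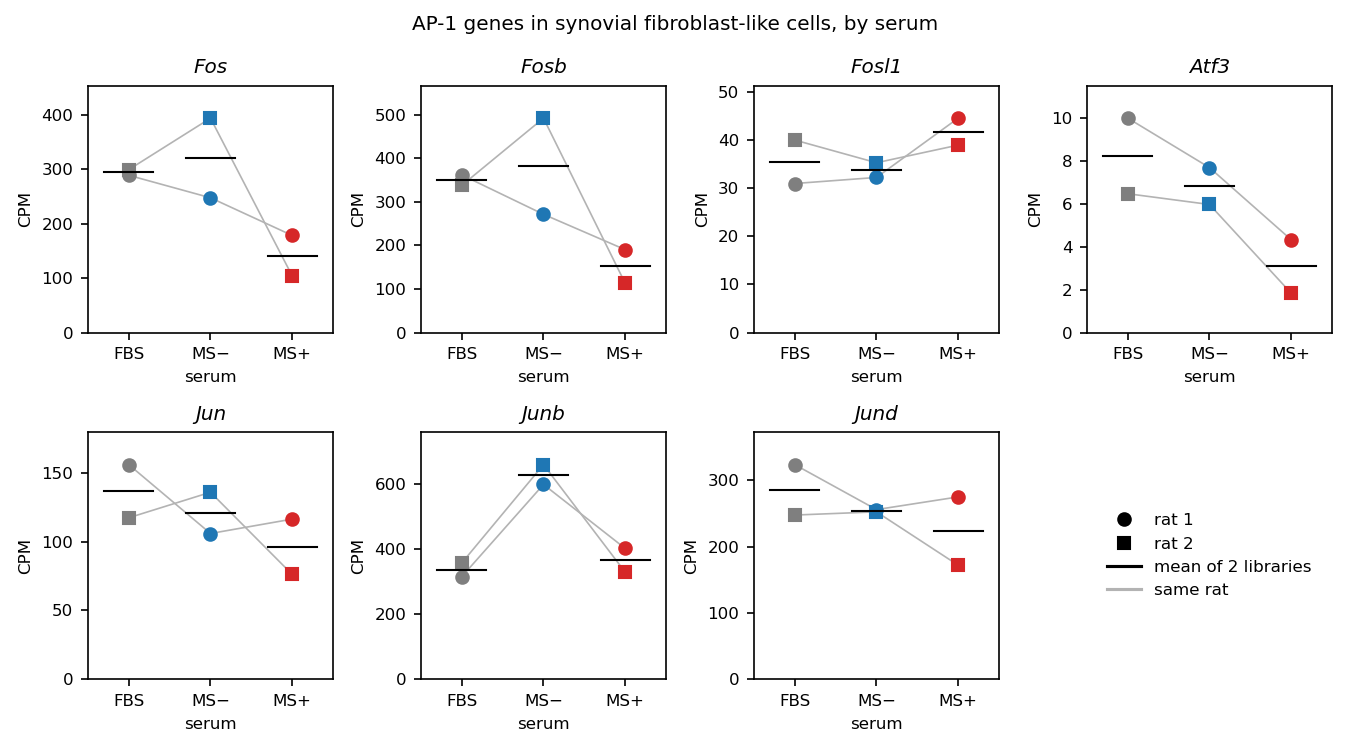
Level of each tested AP-1 gene in CPM (linear axis from 0) by serum, circles for rat 1 and squares for rat 2, with grey lines joining the libraries of a rat and black bars at the mean of the 2 libraries. Fos, Fosb and Atf3 were lowest in both MS+ libraries, while Junb stood at 600.0 and 661 CPM in MS− and between 316 and 403 CPM in the other 4 libraries.

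Junb, a Jun protein often described as a brake on Jun, followed another course, high in MS− and alike in FBS and MS+. Junb (NM_021836, chromosome 19, 24831536 to 24833320, plus strand) measured 316 and 358 CPM in FBS, 600.0 and 661 CPM in MS−, and 403 and 329.8 CPM in MS+. The 2 MS− libraries stood above the other 4, with no overlap. From FBS to MS− it rose from 337 ± 29.8 to 631 ± 43.2 CPM (SD, n = 2 each), a log2 fold change of 0.90 (SE 0.13, 95% interval 0.60 to 1.21, limma adjusted p 0.0143), with 0.92 in rat 1 and 0.88 in rat 2. The rise was no longer past the threshold when FBS replicate 1, MS− replicate 1 or MS− replicate 2 was left out, with changes of 0.81, 0.97 and 0.83.

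From MS− to MS+ Junb changed by -0.79 (SE 0.13, 95% interval -1.09 to -0.48, limma adjusted p 0.111, and 0.000217 with the block), by -0.57 in rat 1 and -1.001 in rat 2. Between MS+ and FBS the difference was 0.12 (SE 0.13, 95% interval -0.19 to 0.42, limma adjusted p 0.608). Acan, a cartilage proteoglycan and the main gene of the cartilage list, was at 1453 and 1827 CPM in MS−, below FBS (2585 and 3012 CPM) and MS+ (2671 and 2538 CPM), opposite to Junb, and its part in that result was not tested.

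Jun, the founding member of the family, and Jund, the constitutive one, varied little beside their error between MS+ and MS−. Jun (NM_021835, chromosome 5, 115358167 to 115361259, minus strand) measured 156 and 117 CPM in FBS, 106 and 136 CPM in MS−, and 116 and 76.2 CPM in MS+. Jund (NM_138875, chromosome 16, 19239694 to 19241529, minus strand) measured 324 and 248 CPM in FBS, 256 and 253 CPM in MS−, and 275 and 172 CPM in MS+. In both genes the MS+ replicate 2 library was lowest of the 6 and the MS+ replicate 1 library lay among the others, so MS+ overlapped MS−. Against FBS, Jund overlapped as well, while Jun did not, by a narrow margin (116.4 CPM in MS+ replicate 1 and 117.4 CPM in FBS replicate 2).

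Against MS− the change of Jun was -0.35 (SE 0.23, 95% interval -0.90 to 0.21, limma adjusted p 0.556), with 0.13 in rat 1 and -0.83 in rat 2. That of Jund was -0.22 (SE 0.22, 95% interval -0.76 to 0.31, limma adjusted p 0.710), with 0.10 in rat 1 and -0.55 in rat 2. Against FBS, Jun gave -0.52 (SE 0.23, limma adjusted p 0.208) and Jund -0.38 (SE 0.22, limma adjusted p 0.323), both negative in both rats. With the rat as a block, both fell from FBS to MS+ (limma adjusted p 0.0211 for Jun and 0.0222 for Jund), in a fit that called 28.2% of all features.

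The Jun genes have no introns, so their spans give their lengths and their levels could be set beside each other per kilobase of transcript. In FBS, Junb stood at 177 and 201 CPM per kb, Jund at 176 and 135 CPM per kb, and Jun at 50.4 and 38.0 CPM per kb. In MS− the order was Junb (336 and 370.3 CPM per kb), Jund (139 and 138) and Jun (34.2 and 43.9). In MS+ it was Junb (226 and 185), Jund (149.8 and 93.7) and Jun (37.6 and 24.6). The ratio of Junb to Jund per kb was 1.004 and 1.49 in FBS, 2.41 and 2.69 in MS−, and 1.51 and 1.97 in MS+. In FBS the means of these neighbours differed by about the spread between the rats, and Jun was the lowest of the 3 in each library. The ratio of Junb to Jun per kb was 3.51 and 5.29 in FBS, 9.82 and 8.43 in MS−, and 5.998 and 7.50 in MS+, so both rat sera lay above FBS in both rats.

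Counted over the 7 tested members, limma called 0 between MS+ and MS− at adjusted p under 0.05, where it called 0.0204% of all features. At unadjusted p under 0.05 there were 4, Fos, Fosb, Junb and Atf3, ranked 268, 274, 45 and 940 by p among 9820 features. DESeq2 called 2 (Fos and Junb) where edgeR and limma-voom called 0. Shares over all features were not counted for unadjusted p alone or for these tools, here and in the lists below. With the rat as a block Fos, Fosb, Junb and Atf3 passed the adjusted threshold, where 10.1% of all features did. By the thresholds of the study (unadjusted p under 0.05 and a change of 2-fold or more), 3 members passed (Fos, Fosb and Atf3), all lower in MS+, beside 1.24% of all features. Without MS+ replicate 2 the changes were -0.80 for Fos, -0.94 for Fosb, -0.55 for Atf3, -0.64 for Junb and -0.044 for Jun. The count by these thresholds was then 0, and it was 1 without MS− replicate 2 and 2 with Fosb left out.

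Between MS+ and FBS limma called 0 members at adjusted p under 0.05 (9.61% of all features), and 3 had an unadjusted p under 0.05. Those were Fos, Fosb and Atf3, ranked 1068, 1026 and 1354 by p among 9820 features. DESeq2 called 1 (Fos), and edgeR and limma-voom called 0. With the block 5 passed (Fos, Fosb, Jun, Jund and Atf3), all lower in MS+, where 28.2% of all features passed. By the thresholds of the study the count was 3 (Fos, Fosb and Atf3), against 5.30% of all features. It was 0 without MS+ replicate 2, where the changes were -0.72 for Fos, -0.87 for Fosb, -0.77 for Atf3, -0.22 for Jun and -0.042 for Jund. Between MS− and FBS, Junb alone passed the adjusted threshold (4.81% of all features, and 20.5% with the block, in which Junb was again the 1 member called), and 0 members met the thresholds of the study (3.62%). The median log2 change of the 7 was -0.79 from MS− to MS+, -0.52 from FBS to MS+ and -0.060 from FBS to MS−, where the medians over all features were -0.0058, 0.00078 and 0.014. MS+ and MS− share the FBS libraries, and the first 2 comparisons share the MS+ libraries, so these values are not independent of each other. MS+ replicate 2 was the lowest of the 6 libraries for 5 of the 7 members. The share of all features lowest in that library was not counted, so this is not read as particular to AP-1.

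**Figure D2:**
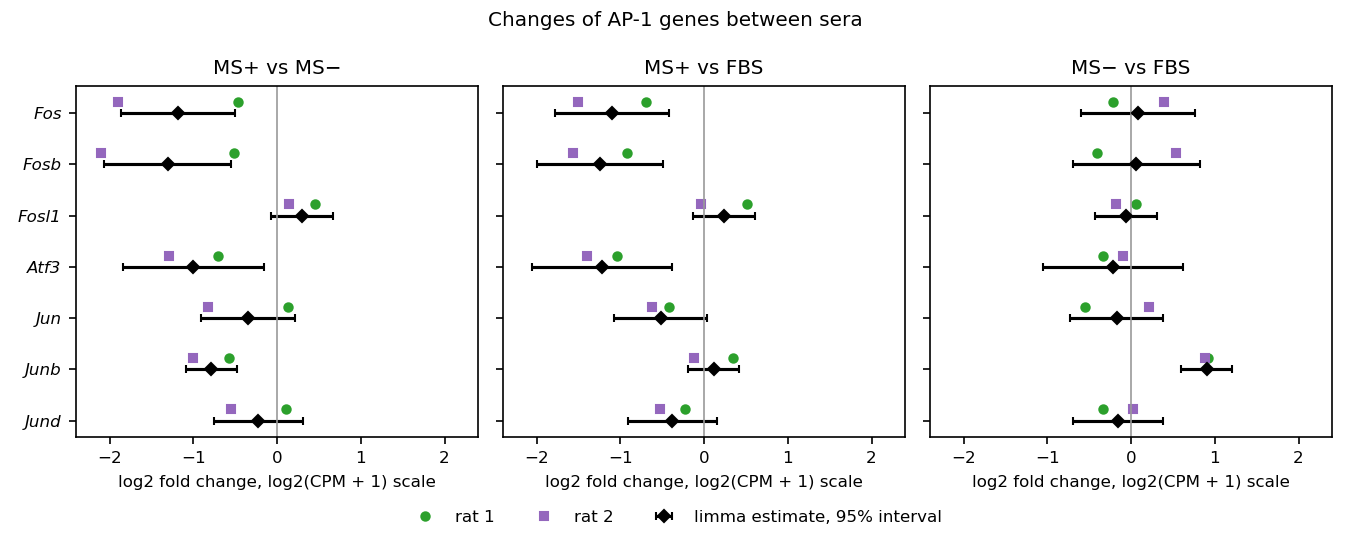
Log2 fold change of each tested AP-1 gene on the log2(CPM + 1) scale in the 3 comparisons, with diamonds and bars for the limma estimate and its 95% interval and coloured points for the difference within each rat. From MS− to MS+ the estimates ran from -1.31 (Fosb) to 0.30 (Fosl1), and from FBS to MS− the interval of Junb alone excluded 0.

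Which members moved with Fos was described by the root mean square (RMS) difference between the centred log2(CPM + 1) values of a gene and those of Fos over the 6 libraries, where a smaller value means a closer course in both shape and size. Fos itself deviated from its mean by an RMS of 0.62, which is the distance a gene that stays flat would have. Fosb was at 0.094, the nearest of 9819 other features. Atf3 followed at 0.36 (rank 78), Jun at 0.39 (rank 131) and Jund at 0.47 (rank 539). Junb, at 0.55 (rank 1686), was little nearer than a flat gene, and Fosl1, at 0.71 (rank 6961), was farther. Thus 5 of the 6 other members were nearer to Fos than a flat gene, as were 37.4% of all features. The number falls to 2 when MS+ replicate 2 is left out.

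The 5 features outside the family with the smallest RMS difference were Cstf3, a subunit of the RNA cleavage stimulation factor (0.22), LOC690276 (0.23), Tmod2, a tropomodulin that caps actin filaments (0.26), Cplx2, a complexin of vesicle fusion (0.26), and Gnb4, a G protein beta subunit (0.26). Their means were 2.04 to 14.2 CPM, and none was as near as Fosb. Cstf3 measured 17.5 and 17.6 CPM in FBS, 14.1 and 18.4 CPM in MS−, and 10.1 and 7.71 CPM in MS+. The 6 libraries come from 2 rats and are not 6 independent samples.

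**Figure D3:**
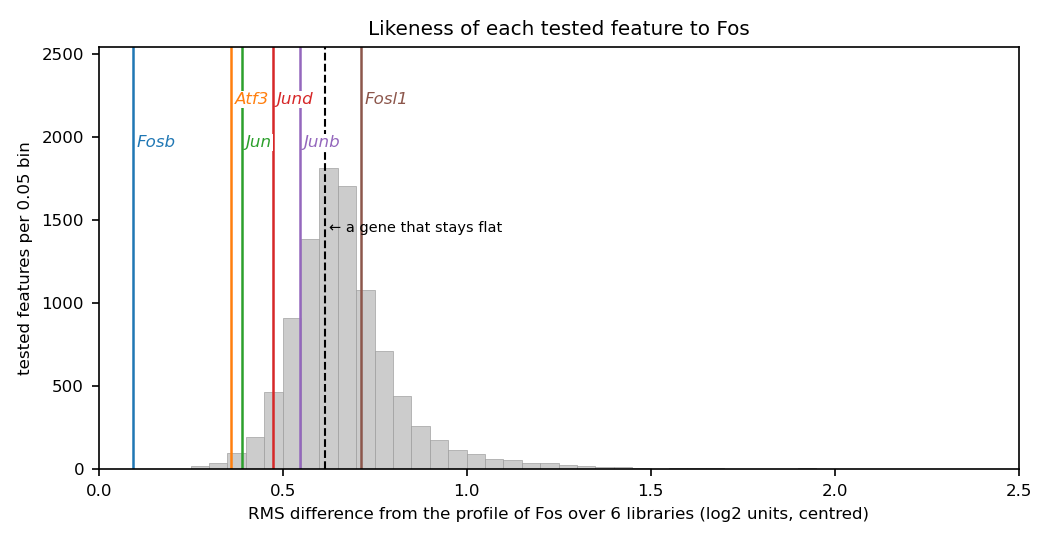
Number of tested features (vertical axis, per bin of 0.05) by their RMS difference from the profile of Fos in log2 units (horizontal axis), with coloured lines at the 6 other AP-1 genes and a dashed line at 0.62, the value of a gene that stays flat. Fosb stands apart at 0.094, and Fosl1 lies past the dashed line at 0.71.

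The ratio of Junb to Fos in CPM was 1.09 and 1.197 in FBS, 2.42 and 1.68 in MS−, and 2.26 and 3.16 in MS+. Both rat sera thus lay above FBS in both rats, while the ratio of Fosb to Fos ran from 1.07 to 1.25 over the 6 libraries. Whether a member changed unlike Fos was not tested.

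Among 20 other bZIP factors tested of 25 listed, relatives that can pair with AP-1 proteins or bind like elements, limma called 0 between MS+ and MS− at adjusted p under 0.05 (4 at unadjusted p, and 0 by edgeR, limma-voom and DESeq2). The median change was -0.13. With the block, Maff, a small Maf protein, fell by 0.86 (limma adjusted p 0.00334) and Maf fell by 0.40 (0.0180), while Atf4, the integrated stress response factor, rose by 0.52 (0.00439). Maff measured 25.2 and 25.0 CPM in FBS, 44.6 and 26.6 CPM in MS−, and 20.9 and 16.3 CPM in MS+. Against FBS, Cebpb rose in both rat sera, by 1.16 in MS+ (limma adjusted p 0.00515) and 0.84 in MS− (0.0124) and Atf5 fell by 0.80 in MS+ (0.0220). Nfe2l1, a stress-responsive factor, differed by 0.01 (SE 0.15) between MS+ and MS−. Cebpb was named after its values were seen, since it was the 1 rise called.

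Of 24 kinases and regulators upstream of AP-1 that were listed, 20 were tested. Limma called 0 of them at adjusted p under 0.05 in each of the 3 comparisons, as did edgeR, limma-voom and DESeq2, with 3, 4 and 3 at unadjusted p under 0.05 in MS+ against MS−, MS+ against FBS and MS− against FBS. Srf, the serum response factor of the Fos promoter, measured 211 and 186 CPM in FBS, 207 and 195 CPM in MS−, and 163 and 168 CPM in MS+, a change of -0.28 (SE 0.10, limma adjusted p 0.269, and 0.0530 with the block) between MS+ and MS−. Elk3, a ternary complex factor that binds beside it, changed by -0.32 (SE 0.10, limma adjusted p 0.226, and 0.0296 with the block). Mapk3, the kinase ERK1, changed by -0.15 (SE 0.09, limma adjusted p 0.524). Map2k7, a kinase that activates JNK, changed by -0.38 (SE 0.16), and the ribosomal S6 kinases Rps6ka1 and Rps6ka2 by 0.53 (SE 0.33) and 0.38 (SE 0.28), none of them past the threshold in limma with or without the block.

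Of 16 tested genes known as AP-1 targets, from 23 listed, limma called 0 between MS+ and MS− (1 at unadjusted p under 0.05, and 0 by edgeR, limma-voom and DESeq2), with a median change of -0.063 and 7 higher and 9 lower. With the block 2 rose and 2 fell, 25% of the list where 10.1% of all features passed. Ccnd1, cyclin D1, fell by 0.31 (limma adjusted p 0.0313), while Nqo1, a quinone reductase, rose by 0.68 (0.0119) and Gja1, connexin 43, by 0.63 (0.000885). Ccl2, a monocyte chemokine, changed by -0.68 (SE 0.34, limma adjusted p 0.422), and Spp1, osteopontin, by 0.31 (SE 0.80, limma adjusted p 0.905), with 371 to 605 CPM in rat 1 and 1359.6 to 1476 CPM in rat 2. Against FBS, Ccl2 rose by 1.63 in MS− (limma adjusted p 0.0455), and Hmox1, heme oxygenase, fell in both rat sera, by 1.28 in MS+ (0.0118) and 1.17 in MS− (0.0219). Hmox1 was named after its values were seen. The listed targets below the filter were Mmp3, Mmp9, Mmp10, Mmp12, Mmp13, Plaur and Vegfa. No matrix metalloproteinase gene of the list, collagenase included, was therefore tested.

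The 23 other immediate early genes tested, of 24 listed, were split in direction. Between MS+ and MS− limma called 0 (13 at unadjusted p under 0.05, 5 by DESeq2, 0 by edgeR and limma-voom), with 11 higher, 12 lower and a median change of -0.021. With the block 5 rose and 9 fell, 60.9% of the list where 10.1% of all features passed. Egr2, a zinc finger factor, fell by 1.73 in that fit (limma adjusted p 3.77e-05) and Ier2 by 1.13 (4.13e-06). Arc, at 0.541 to 11.6 CPM, fell by 1.35 with the block (0.00555), while Ctgf and Cyr61, matricellular proteins, changed by -0.02 (SE 0.18) and 0.09 (SE 0.25), and Dusp1, a MAP kinase phosphatase, by 0.11 (SE 0.12).

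Against FBS, 6 of these 23 rose in MS− and 0 fell at limma adjusted p under 0.05, 26.1% of the list where 4.81% of all features passed. The 6 were Egr2 by 1.07 (limma adjusted p 0.0349), Egr3 by 1.31 (0.0296), Nr4a1 by 0.93 (0.0265), Ier2 by 0.56 (0.0445), Zfp36 by 0.97 (0.00543) and Btg2 by 1.96 (0.00234), and Egr3, Nr4a1, Zfp36 and Btg2 were named after their values were seen. Egr2 measured 14.4 and 17.9 CPM in FBS, 37.3 and 32.4 CPM in MS−, and 11.5 and 8.26 CPM in MS+. Like Junb it stood highest in both MS− libraries. From FBS to MS+, 6 rose and 2 fell, 34.8% of the list where 9.61% of all features passed. Errfi1 rose by 1.24 (limma adjusted p 0.0116), Btg2 by 1.21 (0.00903) and Nr4a1 by 0.83 (0.0257). Rhob rose by 0.66 (limma adjusted p 0.0175), Dusp1 by 0.58 (0.0341) and Zfp36 by 0.58 (0.0222). Of these, all but Dusp1 were named after their values were seen. The falls were Ier2 at -0.57 (SE 0.12, limma adjusted p 0.0300) and Ier5 at -0.60 (SE 0.11, limma adjusted p 0.0244). Ier5 was named after its values were seen. Ier2, at an RMS difference of 0.37, was the nearest to Fos in this list.

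Heat shock genes, 10 tested of 11 listed as stress genes outside AP-1, had a median change of 0.13 between MS+ and MS−, where limma called 0 (3 at unadjusted p under 0.05, and 0 by edgeR, limma-voom and DESeq2). Hspb1, a small heat shock protein, changed by 0.24 (SE 0.13), Hsp90aa1 by 0.10 (SE 0.09) and Dnajb1 by 0.27 (SE 0.13). With the block Hsp90ab1 rose by 0.32 (limma adjusted p 0.0159) and Hspa1b, an inducible HSP70 gene at 5.95 to 14.4 CPM, fell by 0.69 (0.0263). From FBS to MS+, Hspa1b fell by 0.88 (limma adjusted p 0.0452) and Hspb1 rose by 0.66 (0.0280). Hspa1b has a near-identical copy, Hspa1a, so its reads are uncertain.

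**Figure D4:**
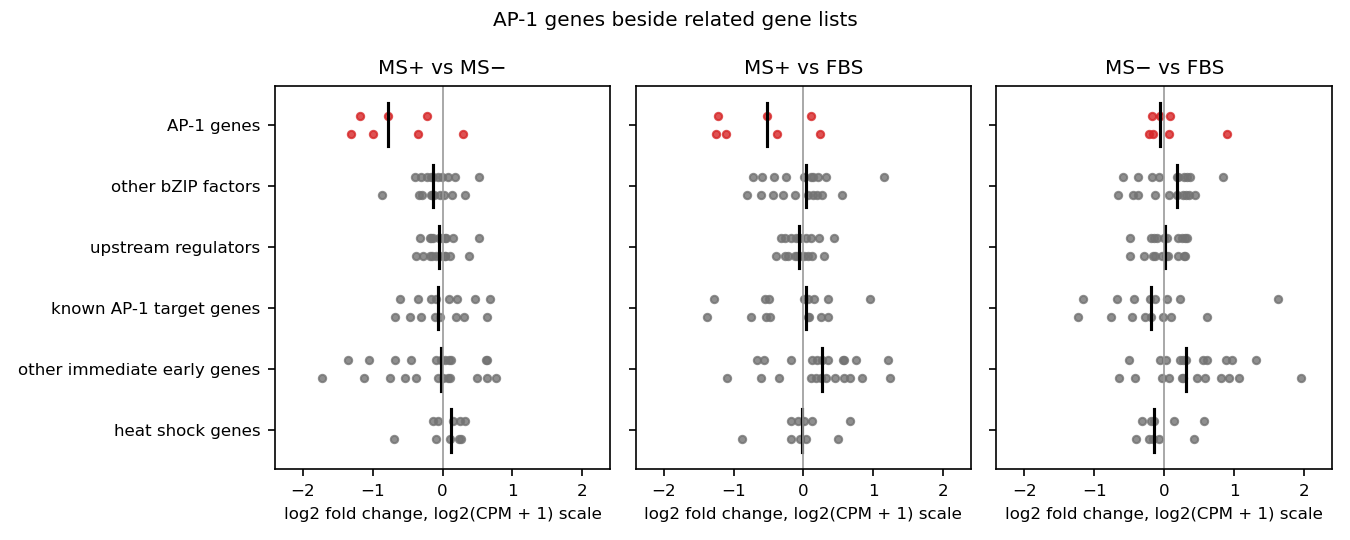
Log2 fold change on the log2(CPM + 1) scale of the 7 tested AP-1 genes (red) and of the tested genes of the 5 related lists (grey) in the 3 comparisons, 1 point a gene, with a black bar at the median of each list. From MS− to MS+ the median of the AP-1 genes was -0.79 and those of the lists ran from -0.13 to 0.13, while other immediate early genes spread from -1.73 to 0.77.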

How the data were processed

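Per the labels and the study's methods, reads of the 6 libraries were aligned to the rat genome rn4 with Bowtie2 2.1.0 and counted per transcript with HTSeq 0.5.4p3. The authors deposited 1 normalized signal per transcript and library, CPM scaled by the TMM method, with 0 per-sample columns left unused here. Strand use in counting was not given in the sources used here. Whole reads were recovered for 100% of the values, within 1e-06 reads. Intervals and floors cover counting error only where they rest on reads, since PCR copies carried no molecular identifiers. The design had assumed plain CPM, and limma on log2 values fits both units.

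Features with both libraries of at least 1 group at 1 CPM were tested with limma 3.58.1 (eBayes with trend, two-sided, Benjamini-Hochberg over all 9820 features) on log2(CPM + 1), with culture condition as the only term over all 6 libraries. The second rule, from the study's thresholds, was unadjusted p under 0.05, a 2-fold change and a mean of 1 CPM. The labels name the same 2 rats in each condition, so replicate numbers pair the libraries, and the rat 2 minus rat 1 differences correlated across features by 0.59, 0.49 and 0.62 between conditions. The rat was therefore used as a block in a further fit. Libraries of the same group differed by more than sampling noise (chi-square per degree of freedom 13.6 to 15.1). Reads were also tested with edgeR 4.0.16, limma-voom and DESeq2 1.42.0 in R 4.3.3.

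The members and gene lists were chosen with earlier results of these data known, and the match of Fosb after seeing the data. Named genes were all members, the 5 features nearest to Fos, and of each list the 3 most abundant and the 3 with the largest change between MS+ and MS−, unless said otherwise. The values of 1 listed gene are not reported here. Positions are those of rn4 as deposited, 1-based. Of the rows, 92.7% had their accession in the RefSeq table of GRCr8, and promoters were read from RefSeq for Junb and Jund.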

Additional observations from a re-analysis of the deposited data

How the results depend on the processing

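Between MS+ and MS−, the count of AP-1 genes past the adjusted threshold, 0 in the main limma test, was 4 with limma and the rat as a replicate block, 4 with edgeR and the block, and 2 with DESeq2. Between MS+ and FBS, also 0, it was 5 with either block, 2 when CPM were scaled by library totals, 1 with DESeq2, and 0 to 1 with a library left out (1, Fosb, without either MS− library). Between MS− and FBS it was 0 to 1 with a library left out. By the thresholds of the study, leaving out a library gave 0 to 3 both between MS+ and MS− and between MS+ and FBS. Atf3 lost its call by those thresholds between MS+ and MS− with DESeq2 size factors (change -0.99, under 2-fold), with DESeq2 (-1.14, unadjusted p 0.050), without MS− replicate 1 (-0.84) and without MS+ replicate 2 (-0.55). The number of members nearer to Fos than a flat gene was 2 to 5 with a library left out. The cause of these changes was not tested. At the adjusted threshold, limma with the block called 10.1% of all features between MS+ and MS− and 28.2% between MS+ and FBS. For the other settings of this section such shares were not counted, so their counts are not read as particular to AP-1. The block changed no call between MS− and FBS and no count by the thresholds of the study.

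With a library left out, Atf3 ran from -1.46 to -0.55 and Jun from -0.65 to -0.044 between MS− and MS+, and some small changes turned direction. From MS− to MS+ Jund ran from -0.56 to 0.11, and from FBS to MS+ Junb ran from -0.028 to 0.26. From FBS to MS−, Fos ran from -0.25 to 0.42, Fosb from -0.36 to 0.49, Fosl1 from -0.24 to 0.12, Jun from -0.38 to 0.032, Jund from -0.35 to 0.037 and Atf3 from -0.50 to 0.059. Of 336 values of single members under the other settings, 298 kept their direction and side of the adjusted threshold, 25 gained a call, 3 lost one (Junb, above) and 10 turned direction. No scaling turned a direction, and scaling shifted the median change over all features by no more than 0.05. Depth limits Atf3 most, at 10 to 61 reads a library, and Batf3 could not be assessed above its floor.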
